A study of Mus musculus with 15 samples.

Results

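The drug-metabolizing enzyme genes of the mouse kidney are described here, defined as the cytochrome P450 (Cyp), UDP-glycosyltransferase (Ugt), glutathione S-transferase (Gst) and carboxylesterase (Ces) genes of the deposited table. Genes were taken by symbol, as those starting with Cyp, Ugt or Ces and a digit, or with Gsta, Gstm, Gstp or Gstt and a digit. Cyp51, Cyp27b1, Cyp24a1 and Cyp26b1, which act in sterol, vitamin D and retinoic acid metabolism, were left out by the same rule. This gave 154 of 23284 genes, namely 98 Cyp, 21 Ugt, 17 Gst and 18 Ces. Messenger RNA was sequenced from the kidneys of wild-type mice given vehicle, L-alanine (L-ala) or D-alanine (D-ala), with 5 samples in each group and a labelled time of 2 h. The 2 alanines are mirror-image forms of one amino acid. The sources used here give no dose, route, vehicle make-up, strain, sex or age, so a difference between the alanines may also reflect unequal doses. The labels do not state that the 5 samples of a group came from 5 mice, so p-values reflect only how these samples vary, and some of that variation may be technical.

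Phase 1 enzymes such as the P450s and carboxylesterases add or expose a reactive group on a lipophilic compound, and phase 2 enzymes such as the Ugt and Gst proteins attach a sugar acid or glutathione to it, which makes it easier to excrete. P450s of the Cyp2 and Cyp4 families also act on the body's own lipids. Cyp2j enzymes form epoxides of arachidonic acid, and Cyp4a and Cyp4f enzymes hydroxylate fatty acids at or near their end. In the kidney many of these genes are active in the proximal tubule, and Cyp4a genes are textbook targets of the fatty acid sensor Ppara.

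The kidneys expressed a small part of these families at high levels. Expression is given as FPKM, fragments scaled to transcript length and library depth, a unit that is scaled to gene length and so allows levels of different genes to be set side by side. Of the 154 genes, 67 reached 1 FPKM in at least 5 of the 15 libraries and were tested (33 Cyp, 12 Ugt, 14 Gst and 8 Ces). The other 87 were not tested. Of these, 20 were listed at 0 in every library, 60 were above 0 without reaching 1 FPKM anywhere, and 7 reached it in 1 to 4 libraries. Just inside this limit were Ugt1a2 with 6 such libraries and Cyp2u1 and Cyp4f14 with 7 each, and just outside were Cyp1a1, Cyp2b10 and Ugt1a1 with 4 each. The tested members had a median of 44.6 FPKM, against 10.1 over all 11781 genes tested.

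Among the tested members, 23 had a mean of at least 100 FPKM, 23 lay between 10 and 100, and 21 lay below 10. Cyp4b1, a P450 that oxidizes fatty acids and some toxins, had the highest mean, and Cyp2e1, which oxidizes ethanol and other small molecules, came next. In vehicle the level of Cyp4b1 was 1744 ± 160 FPKM and that of Cyp2e1 was 1418 ± 74.1 (mean ± SD, n = 5, as for every mean below). Together they made up 32.4% of the summed FPKM of the members, and the 10 most abundant members made up 68.4%. Ugt3a2, a glycosyltransferase of a small family, led the Ugt genes with 765 ± 43.1 FPKM in vehicle, and Ugt2b38 followed with 478 ± 49.4. Gstm1 (360 ± 41.1) and Gstt2 (330 ± 29.5) led the Gst genes, and Ces1f (577 ± 15.3) and Ces1d (312 ± 23.6) the Ces genes. The 154 members held between 1.36% and 1.72% of all FPKM in a library, with 1.53 ± 0.049% in vehicle, 1.44 ± 0.122% in L-ala and 1.61 ± 0.0801% in D-ala. Their summed FPKM averaged 10151 in vehicle (9873 to 10352), 10948 in L-ala (10252 to 11913) and 11019 in D-ala (10521 to 11665). The mean share was thus lowest in L-ala although the mean sum there was above that of vehicle.

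**Figure D1:**
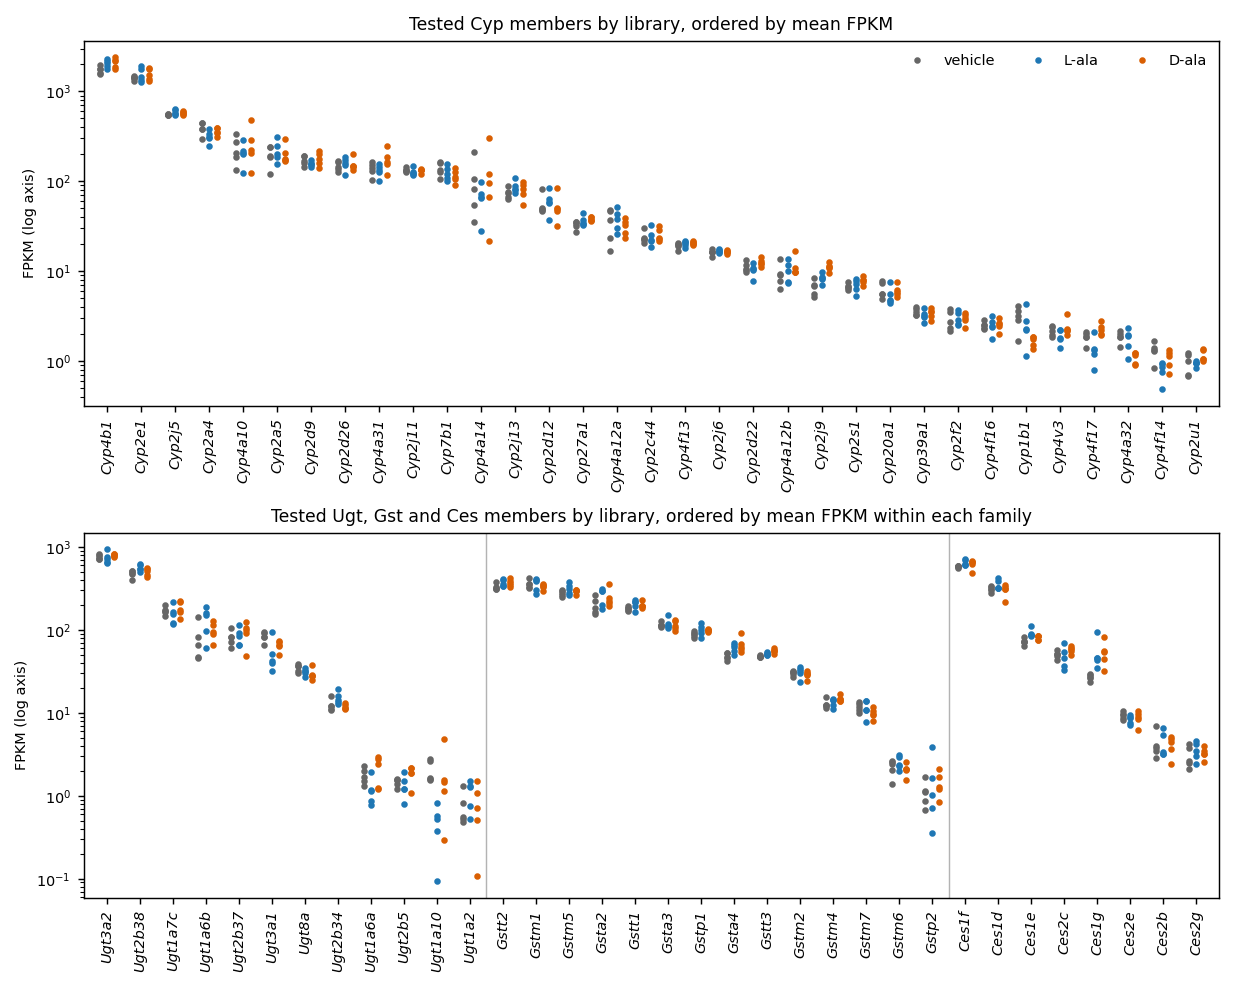
FPKM (log axis) of the 67 tested members in each of the 15 libraries, 1 point per library, with vehicle in grey, L-ala in blue and D-ala in orange; genes are ordered by mean FPKM within the Cyp panel and within the Ugt, Gst and Ces blocks. The members span from Cyp4b1, at 1581 to 2399 FPKM, down to genes near 1 FPKM, and for most genes the 3 colours lie over each other.

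Whole subfamilies that are known from liver were low in these kidneys. None of the 9 Cyp3a genes was tested, and 5 of them were listed at 0 in every library. None of the 5 Cyp2b genes and neither of the 2 Cyp1a genes was tested, and of 16 Cyp2c genes only Cyp2c44 was, at 23.9 ± 3.5 FPKM in vehicle. Cyp7a1, the rate-limiting enzyme of bile acid synthesis, was listed at 0 throughout. So were Cyp11b1 and Cyp11b2, which make adrenal corticosteroids, and Cyp19a1, which makes estrogens. Cyp11a1 and Cyp21a1, 2 other adrenal enzymes, had means of 0.0198 and 0.0108 FPKM over the 15 libraries. Cyp2r1, a vitamin D 25-hydroxylase, was below the limit at 0.757 FPKM on average, and it reached 1 FPKM in no library.

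The tissue label held up against kidney markers, since 14 of 14 proximal tubule markers were expressed and tested. Some of them also moved: 4 rose in L-ala (Slc34a1, Slc5a2, Kap and Miox) and 3 in D-ala (Slc34a1, Slc22a6 and Miox). That is 28.6% and 21.4%, where 11% and 11.5% of all tested genes passed (limma adjusted p under 0.05). Summed levels of the markers were 92355 to 111778 FPKM in vehicle, 115139 to 150354 in L-ala and 83772 to 111850 in D-ala. Kap, an abundant kidney transcript, made up most of these sums. The depth recovered from the deposited numbers was 7.57 to 10.9 M reads per library. The library L-ala replicate 5 was unlike the rest of its group. Over all tested genes, its gene-centred expression correlated with theirs at -0.118 on average, against 0.071 to 0.288 for the remaining 14 libraries within their groups. Members called in a comparison with L-ala are given with and without it. Of 7 endothelial markers, 4 were lower in L-ala and 2 in D-ala than in vehicle at a limma adjusted p under 0.05. These are 57.1% and 28.6%, beside 11% and 11.5% of all tested genes. Summed levels were 92.7 to 158 FPKM in vehicle, 58.1 to 132 in L-ala and 66.8 to 99.1 in D-ala. Of 7 macrophage markers, 3 were lower in D-ala and 1 in L-ala, which is 42.9% and 14.3%, beside 11.5% and 11%. Their summed levels were 150 to 262, 109 to 170 and 125 to 211 FPKM in vehicle, D-ala and L-ala. Of 5 neutrophil markers, 2 were tested, and both were higher in L-ala than in vehicle, by 1.80 and 2.03 as log2 fold changes. Both were also lower in D-ala than in L-ala. That is 100% each time, beside 11% and 13.7% of all tested genes. Summed levels of the 5 were 0.641 to 7.72 FPKM in vehicle, 13.1 to 34.9 in L-ala and 2.39 to 11.2 in D-ala. Of 5 red blood cell markers, 4 were tested. None passed in L-ala against vehicle by limma, though all 4 had an unadjusted p under 0.05, and their summed level was 262 to 744 FPKM in L-ala against 16.2 to 255 in vehicle and 34.9 to 456 in D-ala. Adipocyte markers varied within groups, from 101 to 440 FPKM in vehicle, 146 to 247 in L-ala and 70.5 to 516 in D-ala. The part of these cells in the results below was not tested. With L-ala replicate 5 left out, the number lower in L-ala was 4 for the endothelial and 2 for the macrophage markers, and 7 of the 14 proximal tubule markers passed (5 higher, 2 lower). Of all tested genes, 21.9% then passed in L-ala against vehicle.

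Few of the members changed at 2 h. D-ala against vehicle asked what D-ala changed, and here 4 members rose (Cyp2j9, Gsta4, Gstt3 and Ces1g), 1 fell (Cyp4a32), and 62 did not pass the test (limma, Benjamini-Hochberg adjusted p under 0.05 over all 11781 genes). That is 7.46% of the tested members, where 11.5% of all tested genes were called (6.53% higher and 4.92% lower). In L-ala against vehicle, 2 members rose (Ces1e and Ces1g), 2 fell (Ugt1a10 and Ugt3a1) and 63 did not pass, which is 5.97% beside 11% of all genes (6.48% higher and 4.53% lower). In D-ala against L-ala, 2 members were higher (Cyp2j9 and Cyp4f17), 1 was lower (Cyp4a32) and 64 did not pass, or 4.48% beside 13.7% of all genes (7.01% higher and 6.66% lower). The members' share was thus below that of all genes in each comparison. Without L-ala replicate 5, 10 members passed in L-ala against vehicle (7 higher, 3 lower) and 9 in D-ala against L-ala (7 higher, 2 lower), which is 14.9% and 13.4% of the members, while the calls over all genes went from 1297 to 2580 and from 1611 to 2761, or to 21.9% and 23.4%. Under quantile normalization, the higher genes made up 46.4% of all calls in D-ala against vehicle and 40.6% in L-ala against vehicle, beside 57.0% and 58.8% without that step, and with a mean of at least 5 FPKM they made up 73% in L-ala against vehicle. No member changed in opposite directions in D-ala and L-ala.

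The medians were small, and the intervals of most members lay within ±0.5. Changes are given as log2 fold changes on the log2(FPKM + 1) scale, which understates the change of genes near 1 FPKM. The median over the tested members was 0.08 in D-ala and 0.04 in L-ala, each against vehicle, and 0.03 between the alanines, while the medians over all tested genes were 0.001, 0.007 and -0.009. Of the 67 members, 45, 38 and 36 had positive values in these comparisons, beside 5933, 6069 and 5654 of all 11781 genes. For D-ala against vehicle, the 95% interval of 45 members lay within ±0.5 and that of 63 lay within ±1. The numbers were 42 and 62 for L-ala against vehicle, and 43 and 63 between the alanines. Over all 11781 genes, 9829, 9749 and 9783 intervals lay within ±0.5 and 11441, 11492 and 11510 within ±1. These are larger parts than among the members in each comparison. At an unadjusted p under 0.05, 10, 15 and 12 of the 67 members passed limma's test, beside 3126, 3590 and 3632 of all 11781 genes. Groups did not overlap in any library for 6 members in D-ala and 4 in L-ala, each against vehicle, and for 1 between the alanines, which is to be read against 10.9%, 7.24% and 9.11% of all genes. The members also varied more between libraries than other genes, with a median SD within groups of 0.199 on the log2 scale against 0.136 over all tested genes. In bulk tissue, fewer cells of a type and less RNA per cell cannot be told apart.

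**Figure D2:**
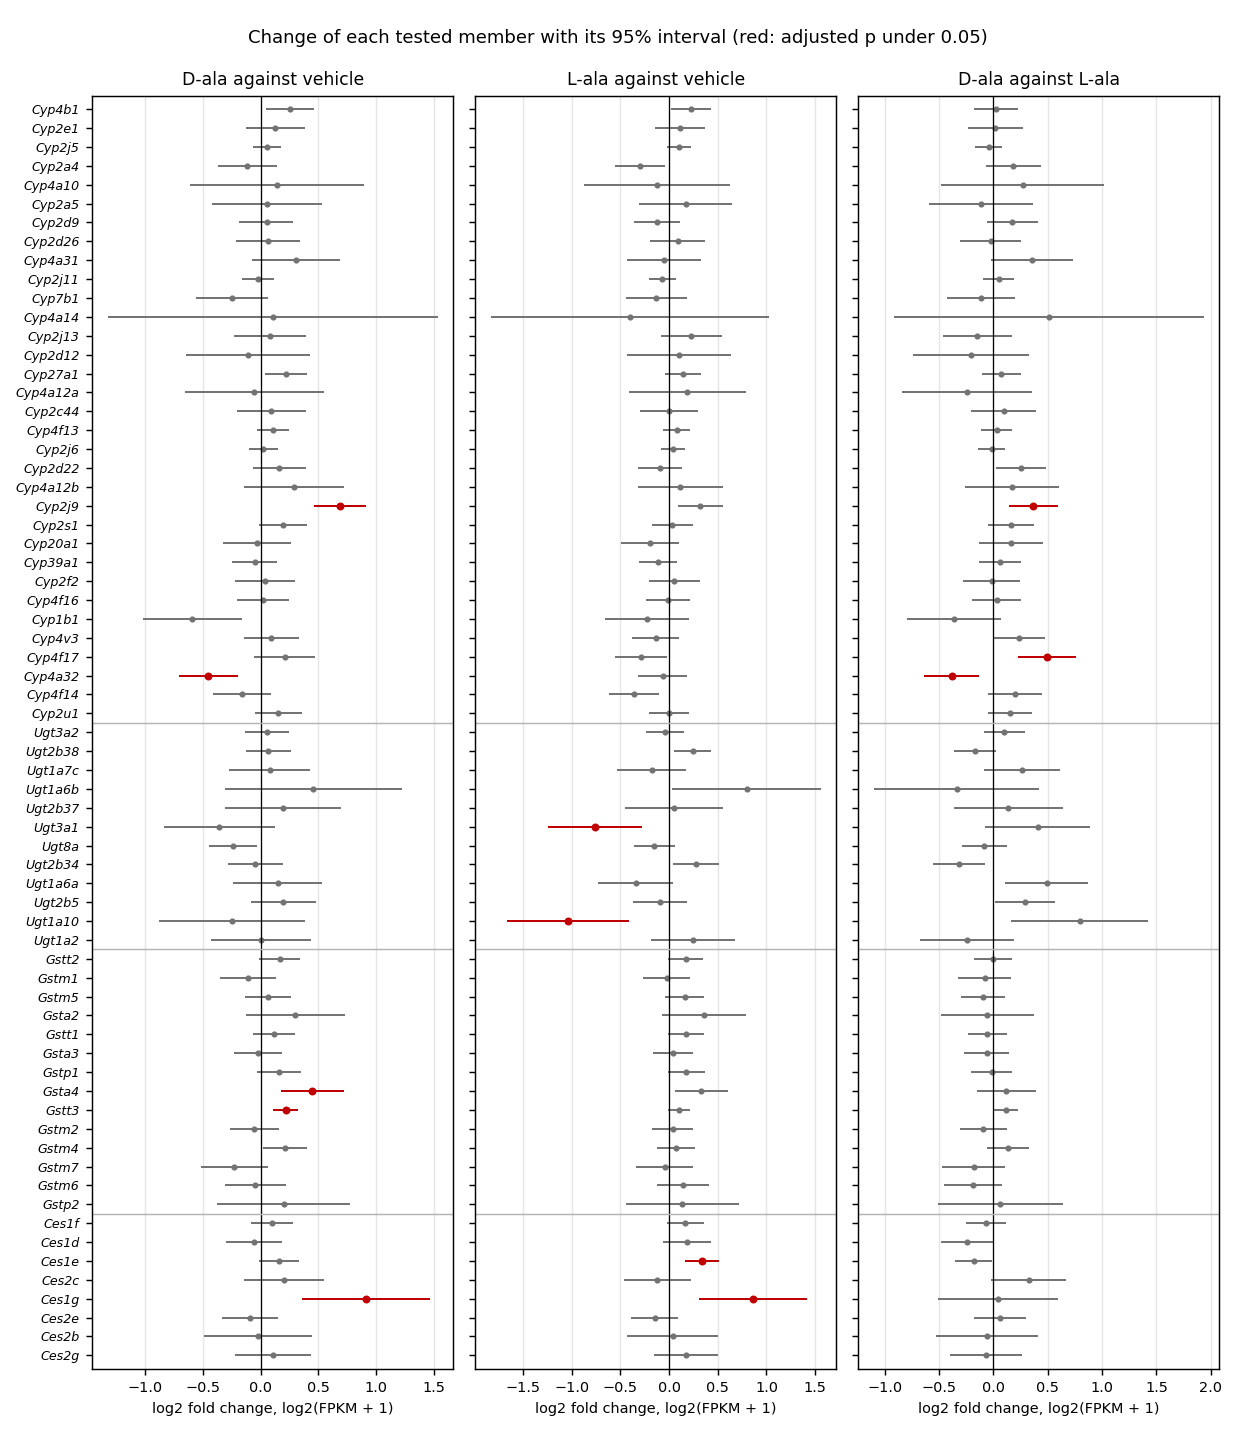
Log2 fold change (log2(FPKM + 1) scale) of each of the 67 tested members in the 3 comparisons, with its 95% interval as a line; red marks a limma adjusted p under 0.05. Most points lie close to 0, and 5, 4 and 3 members are red in the panels from left to right; the widest intervals belong to Cyp4a14.

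Cyp2j9 gave the clearest change of the P450s. This gene (chr4:96568429-96591578, minus strand, GENCODE M21 on GRCm38) lies in the cluster of Cyp2j epoxygenases. Its levels were 8.33, 5.61, 6.76, 7.05 and 5.16 FPKM in vehicle replicates 1 to 5. In L-ala they were 8.28, 8.26, 9.65, 8.69 and 7.09, and in D-ala 10.9, 11.2, 11.3, 9.64 and 12.5. Every D-ala library was above every vehicle library, and the L-ala libraries lay between and overlapped vehicle and touched D-ala. Cyp2j9 rose by 0.69 ± 0.10 (log2 fold change ± SE) in D-ala against vehicle, or 1.61-fold (limma adjusted p = 5.70e-04). It was 0.37 ± 0.10 higher in D-ala than in L-ala (adjusted p = 0.0297), and its value in L-ala against vehicle was 0.32 ± 0.10 (adjusted p = 0.0559). The call against vehicle was kept under all 24 alternatives. The call against L-ala was lost when D-ala replicate 1, 2, 3 or 5 or L-ala replicate 1, 2 or 4 was left out, with adjusted p between 0.0509 and 0.0632. Leaving out L-ala replicate 5 kept it (0.315, adjusted p = 0.0402), and the value in L-ala against vehicle was then 0.37 (adjusted p = 0.0213).

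The other 4 tested Cyp2j genes did not pass in any comparison. Cyp2j5, the most abundant of them and an epoxygenase known for its high level in kidney, was at 551 ± 9.8 FPKM in vehicle, 591 ± 41.4 in L-ala and 573 ± 24.5 in D-ala. Its 95% interval in D-ala against vehicle ran from -0.06 to 0.17, while that of Cyp2j9 ran from 0.47 to 0.91. To show how the upstream sequences of these cluster neighbours compare, the bases just before the start of each gene are given from RefSeq (GRCm38.p6), as far as they lie outside the gene in GENCODE too, on the minus strand and read 5′ to 3′. The windows are chr4:96591579-96591735 for Cyp2j9 and chr4:96664155-96664369 for Cyp2j5. The 93 and 35 bases nearest the RefSeq start lie inside the GENCODE genes and are not printed. Capitals mark matches to 8 short motifs that were searched on both strands in the 250 bases before the RefSeq start. The genes and motifs were chosen after the expression values were seen.
Cyp2j9: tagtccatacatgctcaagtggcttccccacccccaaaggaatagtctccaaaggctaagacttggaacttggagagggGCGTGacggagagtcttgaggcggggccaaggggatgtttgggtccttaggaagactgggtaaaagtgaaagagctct
Cyp2j5: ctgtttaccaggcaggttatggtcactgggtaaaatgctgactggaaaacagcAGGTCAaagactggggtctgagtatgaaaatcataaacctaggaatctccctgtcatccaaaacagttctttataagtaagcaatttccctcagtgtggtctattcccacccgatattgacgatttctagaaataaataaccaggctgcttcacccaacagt
The motifs, with the share of all 32817 promoters in the table that hold them, were the antioxidant response core TGACNNNGC (10.2%), the xenobiotic response core GCGTG (28.1%), the AP-1 site TGANTCA (6.75%), the E-box CACGTG (6.02%) and the cAMP response element TGACGTCA (1.55%). The others were the nuclear receptor half-site AGGTCA (14%), the glucocorticoid half-site AGAACA (16.1%) and the HNF1 half-site GTTAAT (6.44%), and none of the 8 is contained in another. Cyp2j9 held GCGTG at 171 to 167 bases before the RefSeq start, a motif found in 25% of the 48 tested members with a promoter in the table. Cyp2j5 held AGGTCA at 197 to 192 bases before the RefSeq start, which 12.5% of those 48 share. Such matches describe the letters only.

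The Cyp4 fatty acid hydroxylases held both an abundant gene with little spread and the most variable members. Cyp4b1 was at 1744 ± 160 FPKM in vehicle, 2044 ± 197 in L-ala and 2083 ± 265 in D-ala. Its values in D-ala and L-ala against vehicle were 0.25 ± 0.09 (limma adjusted p = 0.0899) and 0.23 ± 0.09 (adjusted p = 0.111), with groups that overlapped. Without D-ala replicate 2 the former passed (0.31, adjusted p = 0.0491).

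Cyp4a14, Cyp4a10 and Cyp4a31, which lie next to each other on chromosome 4 and hydroxylate fatty acids, differed more between libraries of 1 group than between groups. Cyp4a14 was at 214, 34.9, 54.3, 82 and 106 FPKM in vehicle replicates 1 to 5, at 71.4, 66.6, 65.2, 27.9 and 98.7 in L-ala and at 94.7, 307, 121, 21.6 and 66.4 in D-ala. The highest D-ala library was thus 14.2-fold above the lowest. Within-group SD of Cyp4a14 was 1.04 on the log2 scale, the largest of the 67 members, and its interval in D-ala against vehicle ran from -1.31 to 1.52, which spans more than a 2-fold change in either direction. Cyp4a10 was at 339, 132, 188, 209 and 277 FPKM in vehicle, 204, 199, 219, 123 and 286 in L-ala, and 224, 482, 289, 124 and 207 in D-ala. Cyp4a31 spanned 103 to 162 FPKM in vehicle, 100 to 157 in L-ala and 118 to 249 in D-ala. The same library was lowest for all 3 genes in each group, namely vehicle replicate 2, L-ala replicate 4 and D-ala replicate 4. L-ala replicate 5 and D-ala replicate 2 were highest for all 3, and in vehicle the highest was replicate 1 for Cyp4a10 and Cyp4a14 and replicate 5 for Cyp4a31. The other tested Cyp4a genes did not all follow this. Cyp4a12a was highest in vehicle replicate 2 (48.1 FPKM) and lowest in D-ala replicate 2 (23.1 FPKM). Cyp4a12b was highest in D-ala replicate 2 (16.9 FPKM), as the 3 genes were. In L-ala, Cyp4a12a, Cyp4a12b and Cyp4a32 were also highest in replicate 5. Adipocyte markers, summed, were also highest in D-ala replicate 2 (516 FPKM) and lowest in D-ala replicate 4 (70.5 FPKM). In vehicle they were lowest in replicate 2 (101 FPKM), as the 3 genes were, but highest in replicate 4 (440 FPKM), where Cyp4a14 was in mid-range. In L-ala they were highest in replicate 4 (247 FPKM), the lowest L-ala library for all 3 genes. The part of fat in these values was not tested. None of the 3 genes passed the test in any comparison.

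**Figure D3:**
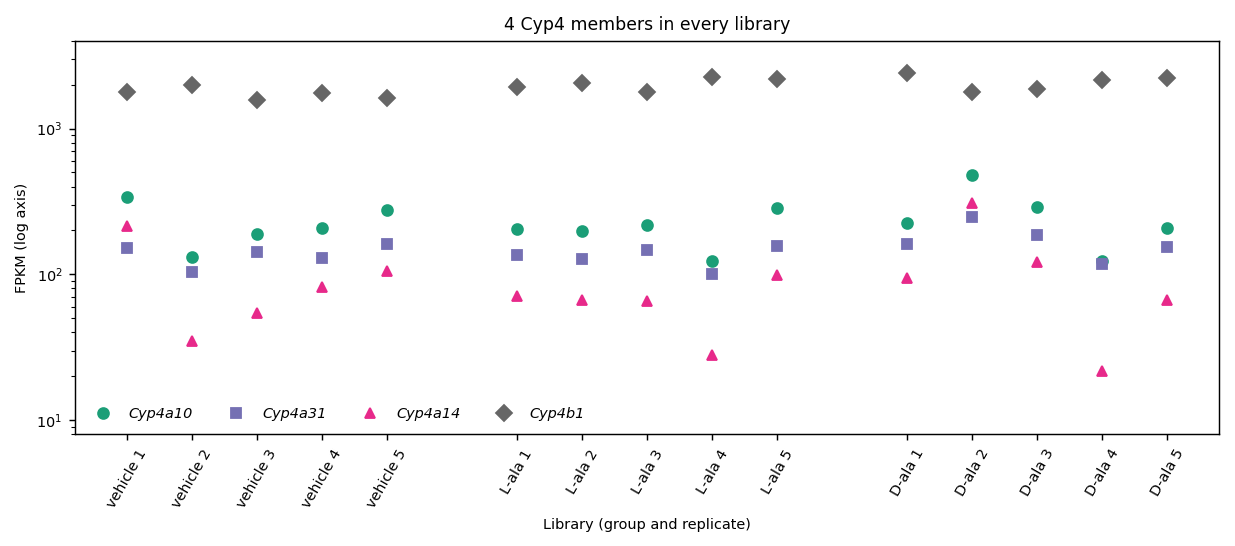
FPKM (log axis) of Cyp4a10, Cyp4a31, Cyp4a14 and Cyp4b1 in each of the 15 libraries, 1 symbol per gene and library. The Cyp4a symbols move up and down together between libraries of 1 group, from 21.6 FPKM for Cyp4a14 in D-ala replicate 4 to 482 FPKM for Cyp4a10 in D-ala replicate 2, while Cyp4b1 stays between 1581 and 2399 FPKM.

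Cyp4a32, a low neighbour in the same cluster (chr4:115600969-115621602, plus strand), was the only member that fell in D-ala. It was at 1.98, 2.13, 1.83, 1.86 and 1.42 FPKM in vehicle and 1.96, 1.48, 1.88, 1.04 and 2.34 in L-ala, and at 1.21, 0.919, 0.908, 1.21 and 1.15 in D-ala. All D-ala libraries were below all vehicle libraries, and they overlapped L-ala. It fell by 0.45 ± 0.12 in D-ala against vehicle (limma adjusted p = 0.019), a call kept under every alternative that tested it. In D-ala against L-ala it was lower, at -0.38 ± 0.12 (adjusted p = 0.0384), but this call was lost when any 1 D-ala library or L-ala replicate 1, 3 or 5 was left out (adjusted p between 0.0539 and 0.0878), with no filter on low values (adjusted p = 0.0552), with the length trend removed (0.0744) and with only these 2 groups in the fit (0.0711). The value without L-ala replicate 5 was -0.307 (adjusted p = 0.058). Reads of Cyp4a32 are hard to place: 46.8% of the 50-base stretches of its longest coding transcript also occur in transcripts of other members, above all Cyp4a10, so its value is uncertain. The male-typical pair Cyp4a12a and Cyp4a12b did not pass, with intervals of -0.65 to 0.54 and -0.14 to 0.71 in D-ala against vehicle.

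Cyp4f17, a low member of the Cyp4f group (chr17:32506050-32530143, plus strand), was higher in D-ala than in L-ala. Levels were 1.19, 0.783, 1.31, 1.36 and 2.09 FPKM in L-ala and 1.98, 2.23, 2.76, 1.96 and 2.38 in D-ala. In vehicle they were 1.38, 1.86, 1.98, 2.08 and 1.83. Only L-ala replicate 5 reached the range of D-ala, and vehicle overlapped both. The value in D-ala against L-ala was 0.49 ± 0.12 (limma adjusted p = 0.017), and this call was kept under every alternative that tested it. Neither alanine passed against vehicle, with 0.21 for D-ala (adjusted p = 0.291) and -0.28 for L-ala (adjusted p = 0.126). Without L-ala replicate 5, Cyp4f17 was 0.598 higher in D-ala than in L-ala (adjusted p = 0.00161) and lower in L-ala than in vehicle (-0.39, adjusted p = 0.0178).

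**Figure D4:**
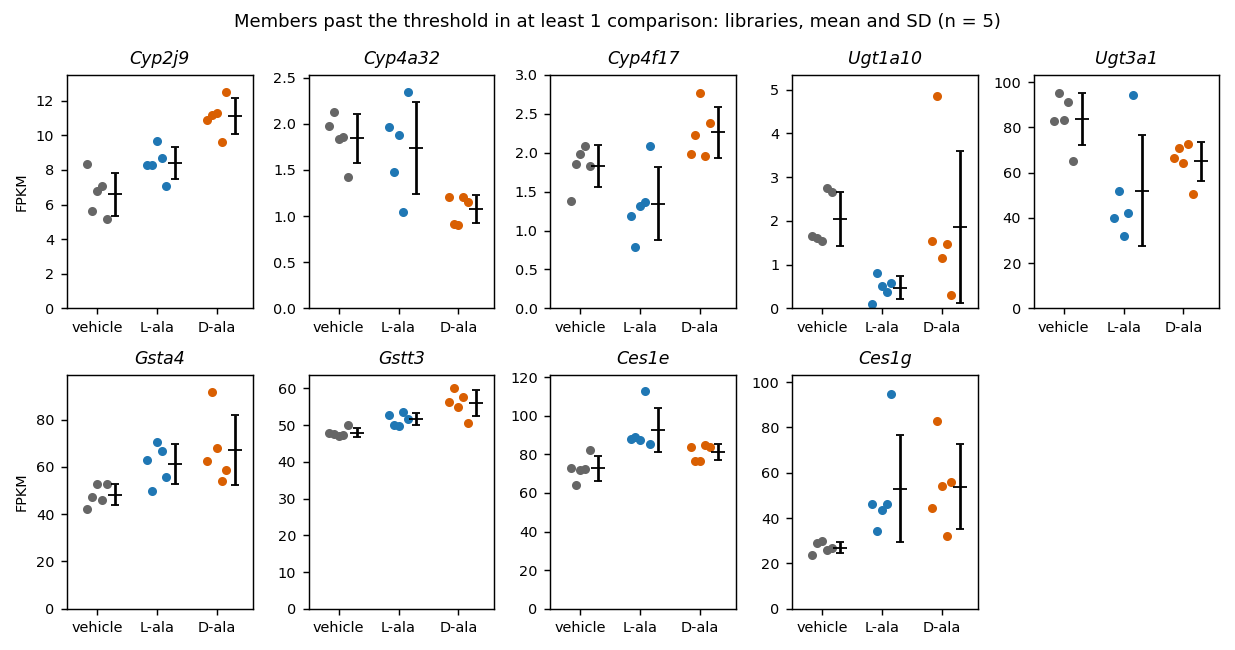
FPKM of the 9 members with a limma adjusted p under 0.05 in at least 1 comparison, with 1 point per library and the group mean and SD (n = 5) beside the points; each axis starts at 0. D-ala points lie above all vehicle points for Cyp2j9, Gsta4, Gstt3 and Ces1g and below them for Cyp4a32, and L-ala points lie below all vehicle points for Ugt1a10.

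The remaining P450s did not pass. Cyp2e1 was at 1418 ± 74.1 FPKM in vehicle, 1548 ± 277 in L-ala and 1563 ± 240 in D-ala, with a D-ala interval of -0.12 to 0.37 against vehicle. Cyp1b1, which oxidizes estradiol and polycyclic hydrocarbons, was at 4.09, 1.67, 3.15, 2.83 and 3.6 FPKM in vehicle and at 1.83, 1.35, 1.5, 1.74 and 1.84 in D-ala, where only vehicle replicate 2 reached the D-ala range. Its value was -0.59 ± 0.20 (limma adjusted p = 0.0659). It passed when the D-ala and vehicle libraries were fitted alone (adjusted p = 0.023) or when vehicle replicate 2 (-0.73, adjusted p = 0.0217), L-ala replicate 3 (adjusted p = 0.0331) or L-ala replicate 5 (adjusted p = 0.0249) was left out. Without L-ala replicate 5, Cyp1b1 was also lower in D-ala than in L-ala (-0.532, limma adjusted p = 0.0343). Of the endothelial and macrophage markers, 2 of 7 and 3 of 7 were lower in D-ala than in vehicle too, and the part of these cells was not tested. Cyp27a1, the mitochondrial sterol 27-hydroxylase, was at 27.5 to 35.5 FPKM in vehicle and 35.9 to 40.2 in D-ala, groups that did not overlap, but its value of 0.22 ± 0.08 did not pass (adjusted p = 0.093) except without L-ala replicate 4 (adjusted p = 0.0416). Cyp7b1, an oxysterol 7-hydroxylase, was at 137 ± 23.5, 125 ± 22.4 and 115 ± 19.1 FPKM in vehicle, L-ala and D-ala, and its intervals included 0 in all 3 comparisons. Cyp2d26 and Cyp20a1 had D-ala intervals of -0.21 to 0.33 and -0.32 to 0.25 against vehicle.

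Of the 12 tested Ugt genes, 2 fell in L-ala, which is 16.7% where 11% of all genes were called and 4.53% were lower. In this family limma called none in D-ala against vehicle or between the alanines, where 1 and 4 had an unadjusted p under 0.05. Over all 11781 genes these numbers were 3126 and 3632. Ugt3a1, a glycosyltransferase that uses N-acetylglucosamine (chr15:9276888-9315032, plus strand), was at 83, 95.1, 83.3, 91.1 and 65.2 FPKM in vehicle. In L-ala it was at 40.2, 51.8, 31.9, 42.3 and 94.3, and in D-ala at 66.7, 70.9, 64.1, 72.8 and 50.5. Replicates 1 to 4 of L-ala were below all vehicle libraries, and replicate 5 was near the top of them. Ugt3a1 fell by 0.76 ± 0.22 in L-ala (limma adjusted p = 0.0411), and by 1.0 ± 0.14 without L-ala replicate 5 (adjusted p = 0.00157), where it was also 0.64 higher in D-ala than in L-ala (adjusted p = 0.00495, against 0.41 and adjusted p = 0.224 with that library). The call in L-ala against vehicle was lost without D-ala replicate 1 or 3, without L-ala replicate 1, 2, 3 or 4 or without vehicle replicate 1, 2, 3 or 4, with adjusted p between 0.0533 and 0.104. It was also lost with no filter on low values (adjusted p = 0.0509), with the length trend removed (0.055) and with only these 2 groups in the fit (0.089). Its abundant neighbour Ugt3a2 did not pass, with an interval of -0.22 to 0.14 in L-ala against vehicle. Ugt3a2 was 0.19 higher in D-ala than in L-ala once L-ala replicate 5 was left out (adjusted p = 0.0409).

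Ugt1a10 (chr1:88055388-88219004, plus strand) belongs to the Ugt1a locus, whose genes join separate first exons to the same downstream exons and conjugate bilirubin, phenols and drugs. It was at 1.65, 1.6, 1.55, 2.76 and 2.66 FPKM in vehicle, at 0.094, 0.821, 0.518, 0.378 and 0.576 in L-ala, and at 1.54, 4.85, 1.15, 1.48 and 0.297 in D-ala. All L-ala libraries were below all vehicle libraries, and D-ala spanned both. It fell by 1.04 ± 0.29 in L-ala against vehicle (limma adjusted p = 0.0361). The call was lost without L-ala replicate 1, 3 or 4 or without vehicle replicate 1, 2, 4 or 5, with adjusted p between 0.0538 and 0.099, and with the length trend removed (0.0507) or under quantile normalization (0.0619). Without L-ala replicate 5 the value was -1.068 (adjusted p = 0.0327). The difference between the alanines, 0.79 (adjusted p = 0.081), passed only without D-ala replicate 5 (1.033, adjusted p = 0.0212). The authors' division of reads among genes of this locus decides such values: 60.8% of the 50-base stretches of the Ugt1a10 transcript occur in other members, and the shares were 100% for Ugt1a6a and 69.3% for Ugt1a7c. Ugt1a6b, with 80.7% shared, varied up to 3.1-fold within a group, at 45.9 to 142 FPKM in vehicle, 61.1 to 187 in L-ala and 66.3 to 130 in D-ala. Its value in L-ala against vehicle was 0.80 ± 0.35 (adjusted p = 0.144), and 1.04 without L-ala replicate 5 (adjusted p = 0.039). Ugt1a7c, the locus's most abundant gene, was at 171 ± 17.8, 154 ± 39.9 and 184 ± 37.5 FPKM in vehicle, L-ala and D-ala and did not pass.

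Other Ugt genes did not pass with all libraries. Ugt2b38 was at 478 ± 49.4 FPKM in vehicle and 565 ± 50.8 in L-ala, a value of 0.24 ± 0.09 (limma adjusted p = 0.0778). Ugt8a, which makes galactosylceramide, was at 34.9 ± 3.46 FPKM in vehicle and 29.6 ± 4.59 in D-ala, a value of -0.24 ± 0.09 (adjusted p = 0.113) that passed only without D-ala replicate 4 (-0.32, adjusted p = 0.0184). Ugt1a2 and Ugt1a6a had intervals in D-ala against vehicle of -0.41 to 0.43 and -0.23 to 0.52. Without L-ala replicate 5, Ugt2b34 was 0.33 higher in L-ala than in vehicle (adjusted p = 0.0409), and Ugt1a6a and Ugt2b5 were 0.60 and 0.37 higher in D-ala than in L-ala (adjusted p = 0.0191 and 0.0378). Ugt2b34 was then lower in D-ala than in L-ala (-0.376, limma adjusted p = 0.0217).

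Of the 14 tested Gst genes, Gsta4 and Gstt3 rose in D-ala, which is 14.3% where 11.5% of all genes were called and 6.53% were higher. For this family limma called none in L-ala against vehicle or between the alanines, where 3 and 1 had an unadjusted p under 0.05. Over all 11781 genes these numbers were 3590 and 3632. Gsta4, which conjugates the lipid peroxidation product 4-hydroxynonenal (chr9:78182774-78209349, plus strand), was at 42.4, 47.2, 52.7, 46 and 52.8 FPKM in vehicle. In L-ala it was at 62.9, 49.7, 70.6, 66.6 and 55.9, and in D-ala at 62.5, 91.8, 68.1, 54.1 and 58.6. All D-ala libraries were above all vehicle libraries, D-ala replicate 2 by the most, and only L-ala replicate 2 fell into the range of vehicle. Gsta4 rose by 0.45 ± 0.12 in D-ala (limma adjusted p = 0.029). It was 0.33 ± 0.12 in L-ala (adjusted p = 0.0879), and the difference between the alanines was 0.12 with an interval of -0.15 to 0.38. The call in D-ala was lost without D-ala replicate 2 (0.33, adjusted p = 0.0526) or 3 or without vehicle replicate 1, 2 or 4, with adjusted p up to 0.0702. Without D-ala replicate 2 the L-ala value passed (adjusted p = 0.0385).

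Gstt3, a theta-class transferase (chr10:75774115-75781414, minus strand), had the smallest change of those called. It was at 47.9, 47.6, 47.1, 47.3 and 49.9 FPKM in vehicle, at 52.8, 50, 49.8, 53.5 and 51.7 in L-ala and at 56.4, 60, 55, 57.7 and 50.7 in D-ala. Vehicle libraries lay within 3 FPKM of each other, and every D-ala library was above them. Gstt3 rose by 0.22 ± 0.05, or 1.16-fold (limma adjusted p = 0.00885), under all 24 alternatives. Its neighbours Gstt1 and Gstt2 did not pass with all libraries, at 0.12 and 0.17 in D-ala (adjusted p = 0.393 and 0.201). Without L-ala replicate 5, Gstt1 and Gstp1 were 0.24 and 0.25 higher in L-ala than in vehicle (adjusted p = 0.0186 and 0.0245).

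None of the abundant transferases passed with all libraries in D-ala against vehicle. Gstm1, a mu-class enzyme, was at 360 ± 41.1, 357 ± 65.3 and 333 ± 23.9 FPKM in vehicle, L-ala and D-ala, with an interval of -0.34 to 0.13 in D-ala against vehicle. Gsta2, an alpha-class enzyme, was at 200 ± 45.8, 257 ± 60.9 and 247 ± 64.9 FPKM and had a wider interval of -0.12 to 0.72, and 44.8% of its 50-base stretches are shared with Gsta1. Gsta3 and Gstp1 had intervals of -0.22 to 0.18 and -0.02 to 0.34. Gsta1 itself was below the limit for testing, at a mean of 0.294 FPKM.

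The Ces1 cluster on chromosome 8 held both called carboxylesterases, of 8 Ces genes tested. They are 12.5% of those 8 in D-ala (1 gene) and 25% in L-ala (2 genes), beside 11.5% and 11% of all genes. Ces1g, a liver and kidney enzyme of lipid handling (chr8:93302369-93337308, minus strand), rose with both alanines. Its levels were 23.6, 28.8, 29.7, 26.1 and 26.8 FPKM in vehicle. They were 46.2, 34.5, 43.4, 46.3 and 94.7 in L-ala and 44.5, 82.9, 54, 31.9 and 56.1 in D-ala. Every library of either alanine was above every vehicle library, and L-ala replicate 5 and D-ala replicate 2 were the highest. The values were 0.91 ± 0.25 in D-ala (limma adjusted p = 0.034) and 0.86 ± 0.25 in L-ala (adjusted p = 0.044), and both use the same 5 vehicle libraries. Between the alanines the difference was 0.04 with an interval of -0.50 to 0.59. Without L-ala replicate 5 the L-ala value was 0.64 (adjusted p = 0.0389). The D-ala call was lost without any 1 vehicle library or without D-ala replicate 1, 2, 3 or 5 (adjusted p between 0.0501 and 0.0731). The L-ala call was lost without any 1 vehicle library, without L-ala replicate 1, 3 or 4 or without D-ala replicate 1, 3 or 5 (adjusted p between 0.0539 and 0.102). It was also lost with no filter on low values (adjusted p = 0.0513), with the length trend removed (0.0678) and under quantile normalization (0.0886). In these alternatives the difference between the alanines ran to either side of 0, with -0.125 without D-ala replicate 2.

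Ces1e (chr8:93201218-93229619, minus strand) lies in the same cluster and was higher in L-ala. Levels were 72.8, 64.3, 71.8, 72.5 and 82.1 FPKM in vehicle, 88.1, 88.8, 87.2, 113 and 85.5 in L-ala and 83.6, 76.5, 76.6, 85.1 and 83.7 in D-ala. All L-ala libraries were above all vehicle and all D-ala libraries. Ces1e rose by 0.34 ± 0.08 in L-ala against vehicle (limma adjusted p = 0.0164), and its value in D-ala was 0.16 ± 0.08 (adjusted p = 0.206). The L-ala call was lost under quantile normalization (0.20, adjusted p = 0.0793) and under no other alternative, and without L-ala replicate 5 the value was 0.367 (adjusted p = 0.00679). Because both genes moved in L-ala, their upstream bases are shown, from RefSeq as above, on the minus strand and 5′ to 3′. The windows are chr8:93337309-93337459 for Ces1g and chr8:93229620-93229869 for Ces1e. For Ces1g the 99 bases nearest the RefSeq start lie inside the GENCODE gene and are not printed. Neither held any of the 8 motifs in the 250 bases before the RefSeq start, so there are no capitals.
Ces1g: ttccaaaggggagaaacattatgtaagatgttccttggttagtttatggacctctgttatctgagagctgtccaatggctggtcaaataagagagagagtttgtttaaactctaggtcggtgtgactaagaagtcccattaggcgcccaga
Ces1e: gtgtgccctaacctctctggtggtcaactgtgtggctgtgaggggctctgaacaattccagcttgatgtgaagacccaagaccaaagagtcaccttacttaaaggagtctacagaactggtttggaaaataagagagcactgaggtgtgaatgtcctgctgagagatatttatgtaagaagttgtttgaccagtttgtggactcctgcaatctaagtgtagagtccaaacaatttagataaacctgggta
Of the printed bases, 43% in Ces1g and 44% in Ces1e were G or C, against 52.9% in Cyp2j9 and 42.3% in Cyp2j5. Transcripts of Ces1g and Ces1e shared 1.67% and 2.32% of their 50-base stretches with other members.

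Ces1f and Ces1d, the abundant members of the cluster, did not pass. Ces1f, a lipid hydrolase, was at 577 ± 15.3, 650 ± 53.7 and 623 ± 79.8 FPKM in vehicle, L-ala and D-ala, with L-ala above vehicle in all libraries and a value of 0.17 ± 0.08 (limma adjusted p = 0.182). Ces1d, a triacylglycerol hydrolase, was at 312 ± 23.6, 357 ± 46.9 and 304 ± 48.9 FPKM. D-ala replicate 2 was the lowest D-ala library for both, and the highest for Ces1g. Among the 4 tested Ces2 genes none passed with all libraries, with D-ala intervals against vehicle of -0.32 to 0.14 for Ces2e and -0.21 to 0.42 for Ces2g. Ces2c was 0.47 higher in D-ala than in L-ala once L-ala replicate 5 was left out (adjusted p = 0.0152).

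The members too low to test were highest in 1 library more often than in any other. Of 67 untested members above 0 somewhere, 23 had their highest value in D-ala replicate 1, and no other library had more than 6. Cyp3a11, a major drug-oxidizing P450 of liver, was at 2.07 FPKM there and at 0 to 0.382 in the other 14 libraries. Ces1c, a secreted plasma esterase made by liver, was at 1.08 FPKM there and at 0.058 to 0.433 elsewhere. In the same library the hepatocyte genes Alb, at 19.1 FPKM, and Apoa1, at 13.2, were above their ranges elsewhere of 4.22 to 9.45 and 1.25 to 4.09. Cps1, a liver urea cycle enzyme, was at 0.109 FPKM there, at 0.02 in L-ala replicate 1 and listed at 0 in the other 13 libraries. The markers were divided on this: 5 of the list of 10 were highest in D-ala replicate 1 (Alb, Apoa1, Serpina1c, Tat and Cps1) and 5 elsewhere. Ttr, the most abundant of them, was at 216 FPKM in D-ala replicate 1 and highest in L-ala replicate 4 at 344, as was the summed level. Apoa2 was highest in L-ala replicate 1, Serpina1a and Fga in vehicle replicate 5 and Fgb in D-ala replicate 2. Of the 10, 7 were tested, and limma called none of these in the 3 comparisons. At an unadjusted p under 0.05 there were 0 in D-ala against vehicle, 2 in L-ala against vehicle and 1 between the alanines. Without L-ala replicate 5, 1 was higher in L-ala than in vehicle and 1 was lower in D-ala than in L-ala. Each is 14.3% of the 7, beside 21.9% and 23.4% of all genes. The summed level of the 10 ran from 179 to 264 FPKM in vehicle, 177 to 410 in L-ala and 148 to 304 in D-ala. The part of liver RNA in these low values was not tested. Cyp1a1, the classical target of the aryl hydrocarbon receptor, was at 0.5 to 1.26 FPKM in vehicle, 0.505 to 1.29 in L-ala and 0.324 to 0.741 in D-ala, and Ugt1a1, the bilirubin transferase, at 0.559 to 1.73, 0.52 to 1.37 and 0.301 to 1.14. Their groups overlapped.

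**Figure D5:**
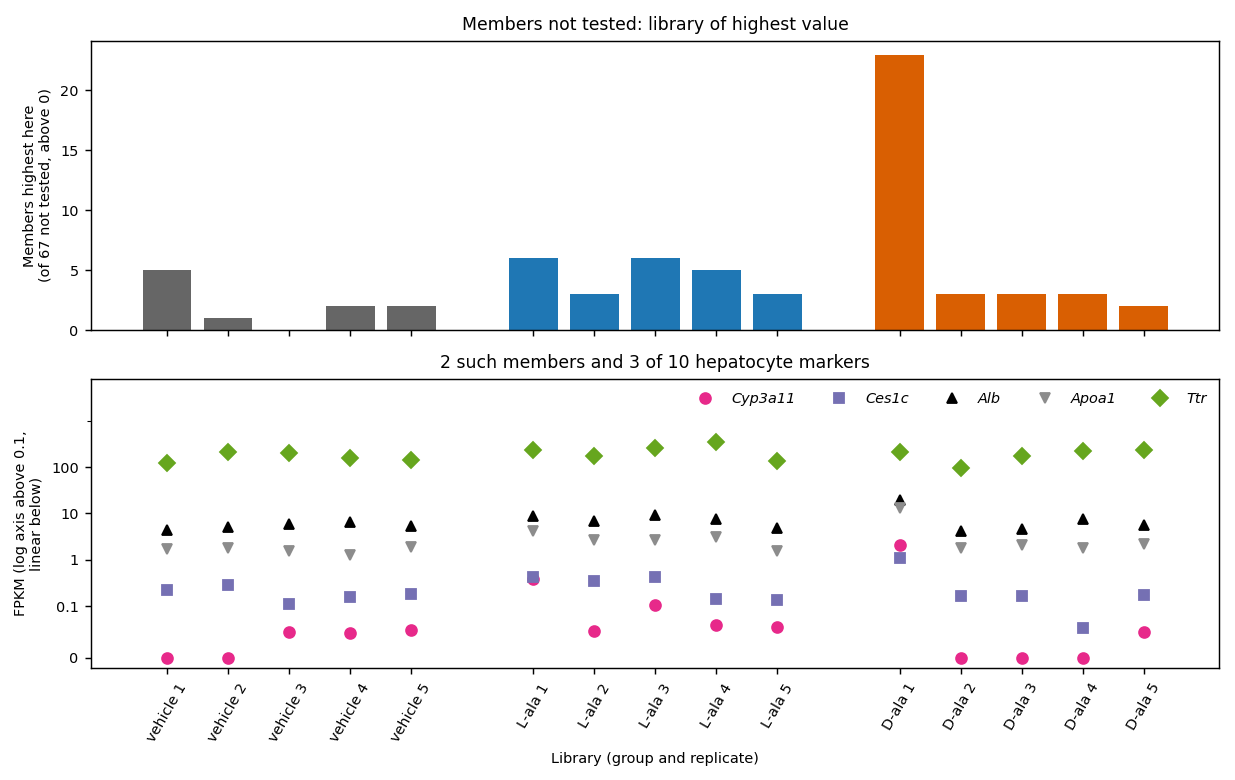
Upper panel: number of the 67 untested members above 0 that had their highest value in each library. Lower panel: FPKM of Cyp3a11 and Ces1c and of 3 of the 10 hepatocyte markers, Alb, Apoa1 and Ttr, in each library (log axis above 0.1, linear below). D-ala replicate 1 holds 23 of the 67 highest values and the highest level of Cyp3a11, Ces1c, Alb and Apoa1, while Ttr is highest in L-ala replicate 4.

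Genes that serve these enzymes were examined in the same way. Of 96 partner genes in the table, 86 were tested, and 5 rose and 2 fell in D-ala, or 8.14% beside 11.5% of all genes. In L-ala 11 rose and 4 fell, or 17.4% beside 11%, and 7 were higher and 5 lower in D-ala than in L-ala, or 14% beside 13.7%. Leaving out L-ala replicate 5 made the L-ala counts 18 and 9 (31.4% beside 21.9%). Their medians were 0.04, 0.06 and -0.04. Of 8 electron donors, limma called none in D-ala against vehicle, with 1 at an unadjusted p under 0.05, and Fdx1l, a mitochondrial ferredoxin, rose in L-ala (0.345, adjusted p = 0.0463), a call lost under 15 of 24 alternatives. Pgrmc1, a heme-binding partner of P450s, was lower in D-ala than in L-ala (-0.260, adjusted p = 0.0139). Por, the reductase that passes electrons to P450s of the endoplasmic reticulum, was at 169 ± 17.3, 164 ± 10.6 and 177 ± 10.2 FPKM in vehicle, L-ala and D-ala. Of 12 genes of heme supply, 2 rose in D-ala and 2 in L-ala, each 16.7%, beside 11.5% and 11% of all genes. Alas1, the rate-limiting enzyme of heme synthesis, went from 130 ± 30 FPKM in vehicle to 230 ± 78 in D-ala (0.77 ± 0.22, limma adjusted p = 0.0398), and Urod, a later enzyme of that pathway, from 87.8 ± 3.78 to 99.9 ± 5.09 (0.18 ± 0.05, adjusted p = 0.0328). In L-ala, 2 rose, Alad and Hmox1, of which Hmox1, which breaks heme down, went from 24.9 ± 6.58 to 42.2 ± 9.55 FPKM (0.75 ± 0.16, adjusted p = 0.0141), with 58.9 FPKM in L-ala replicate 5 and 35.7 to 40.9 in the others. Without that library Hmox1 was 0.624 higher (adjusted p = 0.00972). The summed red blood cell markers lay at 262 to 744 FPKM in L-ala and at 16.2 to 255 in vehicle, and their part in the heme genes was not tested. The calls of Alas1, Urod and Alad were lost under 9, 8 and 15 of the 24 alternatives.

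Of 15 tested other phase 1 enzymes, Fmo2, a flavin monooxygenase, fell with both alanines, from 127 ± 10.4 FPKM in vehicle to 96.7 ± 2.96 in D-ala (-0.38 ± 0.09, limma adjusted p = 0.00968) and 96.6 ± 15.7 in L-ala (-0.40 ± 0.09, adjusted p = 0.0139, and -0.487 without L-ala replicate 5). In D-ala 1 of the 15 passed, or 6.67% beside 11.5% of all genes. In L-ala 3 of the 15 rose and 2 fell, or 33.3% beside 11%. Ephx2, the soluble epoxide hydrolase that converts the products of Cyp2j enzymes, rose there by 0.27 ± 0.05 (limma adjusted p = 0.0102). Ephx1, the microsomal one, fell by 0.43 ± 0.09 (adjusted p = 0.0096). In D-ala against L-ala, 3 of the 15 were higher and 2 lower, or 33.3% beside 13.7% of all genes. Fmo4, Nqo1 and Ephx1 were higher (0.478, 0.456 and 0.342, limma adjusted p = 0.00568, 0.0407 and 0.0183). Akr7a5 and Aadac were lower (-0.285 and -0.284, adjusted p = 0.0171 and 0.018). The Nqo1 call was lost under 11 of the 24 alternatives, and the others under 0. None of the 5 genes of UDP-glucuronate supply, the sugar donor of Ugt enzymes, passed limma's test in any comparison with all libraries. At an unadjusted p under 0.05 there were 0 in D-ala against vehicle, 2 in L-ala against vehicle and 4 between the alanines. Without L-ala replicate 5, Slc35d1 was 0.446 lower in L-ala than in vehicle (limma adjusted p = 0.00508). It was then 0.535 higher in D-ala than in L-ala (adjusted p = 0.00142). Of 20 tested genes of glutathione supply and other transferases, Gsr and Ggt1 rose in D-ala, and in L-ala 3 rose and 1 fell. That is 10% and 20%, beside 11.5% and 11% of all genes. The Gsr call (limma adjusted p = 0.0495) was lost under 17 of the 24 alternatives, and the Ggt1 call in D-ala under 1. Gclc, which makes the first step of glutathione synthesis, was at 97.1 ± 14 FPKM in vehicle, 63 ± 14.6 in L-ala and 104 ± 23.9 in D-ala. It fell by 0.636 in L-ala against vehicle (adjusted p = 0.0326), its value in D-ala was 0.079 (adjusted p = 0.819), and the difference between the alanines was 0.72 ± 0.17 (adjusted p = 0.0167). The L-ala call of Gclc was lost under 6 of the 24 alternatives, and its call between the alanines under 0.

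Among 26 tested regulators of these genes, 2 passed in D-ala, 3 in L-ala and 4 between the alanines. That is 7.69%, 11.5% and 15.4%, beside 11.5%, 11% and 13.7% of all genes. Nr1h4, the bile acid receptor FXR, rose from 137 ± 17.3 FPKM in vehicle to 185 ± 25.7 in D-ala (0.43 ± 0.11, limma adjusted p = 0.0214). Rxrb, the other regulator that passed in D-ala against vehicle, fell by 0.27 ± 0.07 (limma adjusted p = 0.0146). That call was kept under all 24 alternatives. Nr0b2, known as SHP and induced by FXR, rose from 2 ± 0.269 FPKM in vehicle to 3.71 ± 0.382 in L-ala (0.65 ± 0.12, adjusted p = 0.00567), and its value in D-ala was 0.13 (adjusted p = 0.509). Nfe2l2, which encodes the oxidant-responsive factor NRF2, fell by 0.20 ± 0.06 in L-ala against vehicle (adjusted p = 0.0375) and was 0.37 ± 0.06 higher in D-ala than in L-ala (adjusted p = 0.00115). The L-ala call of Nfe2l2 was lost under 9 of the 24 alternatives, and its call between the alanines under 0. That of Nr1h4 in D-ala was lost under 3. Ppara, at 24.4 ± 1.9, 25 ± 2.26 and 25.9 ± 2.4 FPKM in vehicle, L-ala and D-ala, did not pass.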

How the data were processed

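Polyadenylated RNA of 15 kidney samples was analysed from 1 deposited table of 23284 genes. Per the labels' protocols, RNA was extracted in TRIzol and libraries were built with a stranded TruSeq kit. The submitters' processing notes list build mm10 with SAMtools 0.1.19, Bowtie2 2.2.3 and TopHat2 2.0.13. The tool that counted reads per gene, its annotation and its use of strand are not given here, so reads of paralogs and of antisense partners could have been divided between them.

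All tests used the FPKM columns as deposited by the authors, whose unit the headers name. A second column of log2 values, deposited as a processed signal per the file headers, was not used. A column whose header calls it a count was treated as a score, since the authors' values there behave like read counts that were rescaled library by library and then rounded. It gave only the depth (7.57 to 10.9 M reads) and relative gene length, and no count model was run. Precision is therefore the spread between libraries.

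The test covered the 11781 genes that reached 1 FPKM or more in 5 libraries or more. To log2(FPKM + 1) of all 15 libraries, a model of 1 mean per group was fitted with limma 3.58.1 in R 4.3.3 (empirical Bayes with trend, robust). P-values were adjusted by Benjamini-Hochberg over all tested genes in each comparison, and calls are at an adjusted p under 0.05. Intervals are at 95%. The fitting code was tested on simulated data. Replicates are numbered in accession order and pair no samples.

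The members, the partner and marker lists and the tests were chosen with earlier results of these data known. Named members were those called, the 3 of highest mean in each family and a set list. Cyp2c44, Cyp3a11, Cyp4a31, Ces1c, Ces2c, Ugt1a6b, Ugt2b5, Ugt2b34 and members named only for their level or as neighbours were added after their values were seen, as were the motifs and the shared-sequence measure. Partner genes named with values were picked after their values were seen, and not strictly by smallest p. Slc35d1, Por and Ppara are named although they did not pass with all libraries. Marker genes named singly were picked after their values were seen. Positions are those of GENCODE M21, which had 153 of the 154 members, 3 of them under another symbol. RefSeq promoters matched 118 members. Alternatives were median-of-ratios scaling, quantile normalization, a pseudocount of 0.1, no filter, a mean of at least 5 FPKM, no trend, only the 2 groups compared, removal of a GC or length trend, and each library left out.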

Additional observations from a re-analysis of the deposited data

Results flagged for a closer look

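Within groups of 5, single libraries stood far from the other 4 for 10 of 114 sets of values (38 named and tested members in 3 groups), where chance alone gives about 1 in 20, or 5.7. D-ala replicate 2 accounted for 4 of them. It had 219 FPKM of Ces1d against 311 to 344 in the other D-ala libraries, 485 of Ces1f against 625 to 680, 203 of Cyp2d26 against 132 to 149, and 16.9 of Cyp4a12b against 9.71 to 10.8. Other D-ala libraries stood out for Gstm5 (261 FPKM in replicate 4, against 294 to 306) and Gstt1 (228 in replicate 5, against 184 to 195). In L-ala, replicate 4 had 113 FPKM of Ces1e against 85.5 to 88.8 and 150 of Gsta3 against 107 to 117, and replicate 5 had 94.7 of Ces1g against 34.5 to 46.3. In vehicle, replicate 5 had 49.9 FPKM of Gstt3 against 47.1 to 47.9, a gap of small size in a tight group.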

How the results depend on the processing

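Over 114 values (38 named, tested members in 3 comparisons) and 24 alternatives, no called value changed sign, while differences of called members that did not pass did so in 7 cases, all with an adjusted p of 0.764 or more; 4 of 12 calls were kept under every alternative that could test them (Cyp2j9, Cyp4a32 and Gstt3 in D-ala against vehicle and Cyp4f17 in D-ala against L-ala), 8 were lost under at least 1, and 15 values passed under at least 1 without passing otherwise. With a mean of at least 5 FPKM, which leaves 50 members, 0 fell in D-ala against vehicle, 1 fell in L-ala, and 1 was higher and 0 lower in D-ala than in L-ala. With no filter, 1 rose and 1 fell in L-ala and 0 were lower in D-ala than in L-ala; the same counts were 1, 1 and 0 with the length trend removed, where the gene that fell was Cyp4f14 in place of Ugt1a10 and Ugt3a1. Quantile normalization left 0 rises in L-ala. With only the 2 groups compared, 2 fell in D-ala, 1 fell in L-ala and 0 were lower in D-ala than in L-ala. With 1 library left out, rises and falls ranged from 2 to 5 and 1 to 2 in D-ala against vehicle, from 1 to 7 and 0 to 3 in L-ala against vehicle, and from 1 to 7 and 0 to 2 in D-ala against L-ala; each 7 came without L-ala replicate 5. The causes were not tested, except that members under the higher FPKM limit could not be called. Calls over all genes moved too. With a mean of at least 5 FPKM, 1062 of 8037 genes passed in D-ala against vehicle, 1113 in L-ala against vehicle and 1306 in D-ala against L-ala. With no filter these were 1192, 957 and 1290 of 18067. With the length trend removed, 1678 passed in D-ala against vehicle and 1334 in D-ala against L-ala. With only the 2 groups compared, 1431 passed in D-ala against vehicle. In L-ala against vehicle, 1297 became 747 with the length trend removed, 603 with only the 2 groups and 576 under quantile normalization, and 321 to 2580 with 1 library left out. In D-ala against L-ala, 1611 became 975 with only the 2 groups and 770 to 2761 with 1 library left out. In D-ala against vehicle, 1349 became 812 without vehicle replicate 4. No paired analysis was possible because the labels give no replicate numbers. At 7.57 to 10.9 M reads, members below 1 FPKM rest on few reads, and so do their differences.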
